A study of Homo sapiens with 12 samples.

Results

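The 31 genes described here were chosen as members of the p53 pathway: regulators of p53 and genes listed as switched on by it. They were taken by symbol from a table of 27685 gene symbols, and all 31 had a row. Their messenger RNA was read by sequencing in U251, a human glioblastoma cell line used at passages 14-18. All cells stably carried a short hairpin RNA, which was a control (shCTRL) or aimed at INCA1, a long noncoding RNA (shINCA1). Both lines were sampled untreated and after 24 h of interferon gamma (IFNγ), which gave 4 groups of 3 libraries: untreated shCTRL, IFNγ shCTRL, untreated shINCA1 and IFNγ shINCA1. The labels give 1 line per hairpin, so a difference between shINCA1 and shCTRL cells is also a difference between lines. The level of the targeted INCA1 RNA was not analysed here, so its knockdown was not checked. U251 cells are known to carry a mutant p53, and the level of p53's own transcript is not reported here.

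p53 is a transcription factor that is stabilised when DNA is damaged or when growth control fails. MDM2, a ubiquitin ligase, and its partner MDM4 keep it low, and MDM2 is itself switched on by p53, which closes a feedback loop. Its targets halt the cell cycle, start apoptosis, aid DNA repair, adjust metabolism and send signals out of the cell. Several of these genes also answer to other factors, so their messenger RNA is not a reading of p53 alone.

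Libraries held 46525032 to 66242859 estimated counts. Levels are given as CPM, counts per 1000000 after scaling of the library sizes, and are compared between samples but not between genes, since they are not per length. Of the 31 genes, 29 had enough counts to be tested among 15769 genes. Whether the 3 samples of a group are separate cultures is not stated in the labels. The p-values therefore cover only the spread among these samples, which could be technical. Glioma and neural stem markers were GFAP, VIM, S100B, NES, SOX2, OLIG2 and CD44. They summed to 3339 to 3483 CPM in shCTRL and 2800 to 2899 CPM in shINCA1 libraries. None of the 7 was at 0 in a whole group, but GFAP, S100B and OLIG2 averaged 2.46 CPM or less in every group. Most of the sum was VIM and CD44. Untreated shCTRL and shINCA1 means were 2531 and 1818 CPM for VIM, and 656 and 883 CPM for CD44. Like VIM, NES (137 and 33.5 CPM), SOX2, GFAP and S100B had lower means in untreated shINCA1 cells, and OLIG2, like CD44, a higher one. The 6 leukocyte markers summed to 9.83 to 14.5 CPM, nearly all of it CD68, and CD3E and AIF1 were at 0 throughout. CD68, a macrophage marker that other cells can express, was at 12.6 CPM in untreated shCTRL and 9.46 CPM in untreated shINCA1 cells on average (log2 difference -0.42 ± 0.07, edgeR adjusted p = 1.74e-04). The 5 epithelial markers were KRT8, KRT18, KRT14, EPCAM and CDH1. They summed to 90.0 to 96.4 CPM in shCTRL and 241 to 270.3 CPM in shINCA1 libraries, nearly all of it KRT18. In untreated shCTRL and shINCA1 cells KRT18 averaged 92.0 and 247 CPM, KRT8 2.90 and 5.14 CPM, and KRT14 0.238 and 1.89 CPM. CDH1 was at 0 in IFNγ shCTRL and EPCAM at 0 in IFNγ shINCA1 cells, and neither averaged above 0.111 CPM in a group. The part of these shifts in the differences between the lines was not tested.

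Sequences near the start of transcription that match the p53 consensus are shown first, since p53 is known to bind its targets at such letters. Of the 4 genes they belong to, AEN, SESN1 and GDF15 passed between the lines in both states and DDB2 in neither, where 56.9% of all tested genes passed without and 58.9% with IFNγ. RefSeq promoter windows (GRCh38.p14, from 250 bases before to 50 after a start) were found for 27 of the 31 genes, 37 windows in all. They were searched on both strands for the p53 full site, a pair of p53 half-site consensus decamers 0 to 13 bases apart with at most 3 mismatches. Of these genes 4 held such a site, in 4 of the 37 windows, and 4.49% of all 35116 windows did. Letters beyond the windows were not searched, so a gene without a match here can hold a site elsewhere. Capitals mark the site, in the direction of the gene.
AEN: agccGGGCTTGCCCGGGCATGTGGgagc
SESN1: gtctGGACAAGTCTCCACAAGTCAgaaa
DDB2: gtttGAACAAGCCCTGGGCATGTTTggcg
GDF15: gcacAGCCATGCCCGGGCAAGAACtc

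The AEN site (chr15:88621306-88621325, plus strand) had 2 mismatches and ended 15 bases before the start. The SESN1 site (chr6:109009018-109009037, minus strand) had 3 mismatches and ended 30 bases before 1 of the starts of SESN1. The other SESN1 windows held no such site. In DDB2 (chr11:47214979-47214999, plus strand) the letters matched with 0 mismatches, 5 bases after 1 of its starts, and its other window held no such site. In GDF15 (chr19:18386186-18386205, plus strand) they matched with 3 mismatches, 28 bases after the start. An exact match to 1 half-site was found in 5 genes, AEN, DDB2, FDXR, PLK2 and SESN1. These were 5 of the 37 windows, and 6.63% of all windows held such a match. Motifs of the interferon pathway were searched on both strands too. TTCNNNGAA, the GAS element, was found in DDB2 alone among the 27 genes and in 7.66% of all windows. The ISRE core, bound by IRF factors, was found in BBC3 alone and in 3.57% of all windows. The GAS element was held by 1 and the ISRE core by 1 of the 37 windows. None of these matches overlapped a p53 site, whereas full sites can hold the exact half-sites just counted. A match describes the letters and does not by itself show binding.

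More genes of the set passed between the lines than in response to IFNγ. Without IFNγ, 8 of the 29 tested genes (27.6%) were higher and 11 (37.9%) lower in shINCA1 than in shCTRL cells, in edgeR's quasi-likelihood test at an adjusted p of 0.05. Over all tested genes 27.4% were higher and 29.5% lower, 56.9% in either direction, so the share raised was near the background. With IFNγ 11 were higher (37.9%) and 10 lower (34.5%), against 28.7% and 30.2%, together 58.9%, of all tested genes. The libraries of the lines did not overlap for 20 of the 29 genes without and 22 with IFNγ, and for 62.8% and 66.5% of all tested genes. The median log2 difference of the 29 genes was 0.04 without and -0.07 with IFNγ, beside -0.01 and -0.00 over all tested genes. The set therefore had no common direction: GDF15, AEN, CDKN1A, FDXR, GADD45A and PHLDA3 stood higher in shINCA1 cells, and TP53INP1, BBC3, POLH, SESN1, PPM1D and PMAIP1 lower.

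**Figure D1:**
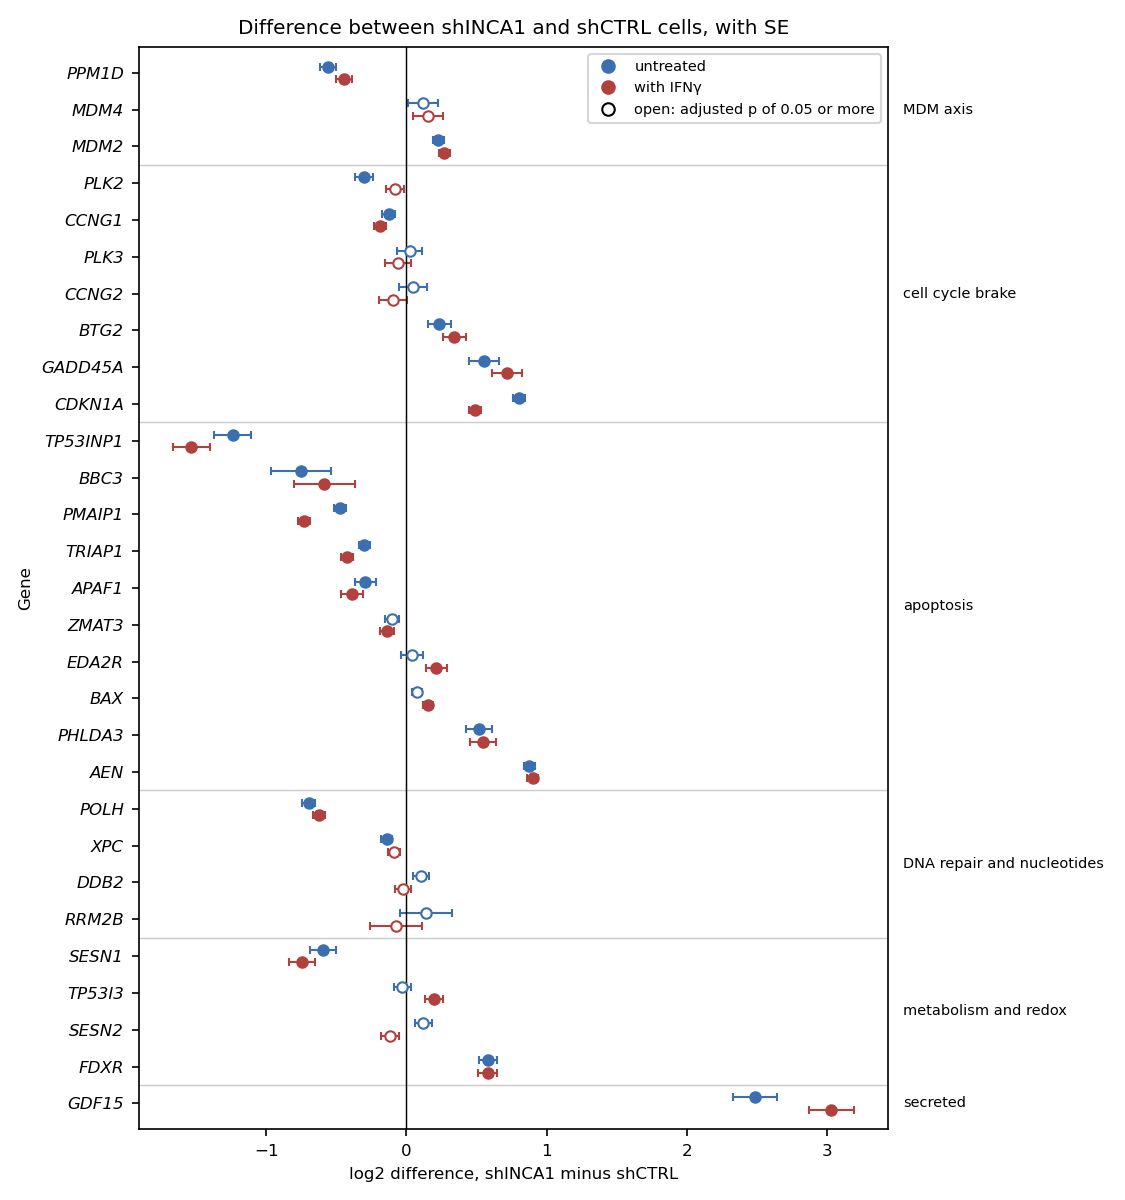
Difference between the lines for the 29 tested genes, grouped by role: the x axis is the log2 difference shINCA1 minus shCTRL with its SE, blue without and red with IFNγ, filled points past an adjusted p of 0.05. GDF15 lies farthest to the right (2.49 and 3.03) and TP53INP1 farthest to the left (-1.24 and -1.53).

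Genes that restrain p53 moved apart. MDM2, the ligase that marks p53 for destruction, was at 87.1, 93.3 and 91.8 CPM in untreated shCTRL and 106, 111 and 101 CPM in untreated shINCA1 libraries. Every shINCA1 library was above every shCTRL library, a log2 difference of 0.23 ± 0.04 (SE, edgeR adjusted p = 3.98e-04), and 0.27 ± 0.04 with IFNγ (adjusted p = 1.03e-04). PPM1D, a phosphatase that switches off p53 and its upstream kinases, went the other way, at 23.0, 22.7 and 23.2 CPM in untreated shCTRL and 14.96, 14.996 and 16.8 CPM in untreated shINCA1 libraries. Its difference was -0.56 ± 0.06 without IFNγ (adjusted p = 5.29e-06) and -0.44 ± 0.06 with it (adjusted p = 3.68e-05). MDM4, the partner of MDM2, was at 16.0 ± 1.39 and 17.4 ± 1.29 CPM (SD, n = 3) in untreated shCTRL and shINCA1 cells and did not pass (0.12 ± 0.11, edgeR adjusted p = 0.368).

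Among the genes that slow the cell cycle, CDKN1A, which encodes the cyclin-dependent kinase inhibitor p21, was at 52.6, 50.8 and 48.0 CPM in untreated shCTRL and 88.9, 85.6 and 90.1 CPM in untreated shINCA1 libraries. The groups did not overlap, and the log2 difference was 0.80 ± 0.04 (SE, edgeR adjusted p = 1.24e-08), or 1.75-fold. With IFNγ it was 0.49 ± 0.04 (adjusted p = 8.53e-07). GADD45A, a stress sensor that acts on cycle kinases and repair, was at 16.4, 19.8 and 17.8 CPM in untreated shCTRL libraries and at 26.5 CPM in each untreated shINCA1 library. Its difference was 0.56 ± 0.11 (adjusted p = 7.49e-04), and 0.72 ± 0.11 with IFNγ (adjusted p = 1.01e-04). BTG2, an antiproliferative factor tied to messenger RNA decay, was also higher, by 0.23 ± 0.08 (adjusted p = 0.0255) and 0.34 ± 0.08 with IFNγ (adjusted p = 0.00342). The call without IFNγ was lost without untreated shCTRL library 3 or untreated shINCA1 library 1 (adjusted p 0.106 to 0.117).

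Other genes of this group were lower or did not pass. The kinase gene PLK2, which acts in centriole duplication, differed by -0.30 ± 0.06 without IFNγ (edgeR adjusted p = 0.00154) and by -0.08 ± 0.06 with it (adjusted p = 0.281). CCNG1, which encodes cyclin G1, a partner of a phosphatase that acts on MDM2, differed by -0.13 ± 0.05 (adjusted p = 0.0328) and -0.19 ± 0.05 with IFNγ (adjusted p = 0.00362). The CCNG1 call without IFNγ was lost without untreated shCTRL library 2 or 3, untreated shINCA1 library 1 or IFNγ shINCA1 library 3 (adjusted p 0.0767 to 0.107), and also under 6 other settings, the stricter threshold of 0.01 among them. CCNG2 and PLK3 passed in neither state.

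Apoptosis genes were split. AEN, a nuclease that degrades DNA in dying cells, was at 75.2, 68.3 and 74.8 CPM in untreated shCTRL and 136, 128 and 137 CPM in untreated shINCA1 libraries. Its log2 difference was 0.88 ± 0.04 (edgeR adjusted p = 5.83e-09), and 0.90 ± 0.04 with IFNγ (adjusted p = 4.52e-09). PHLDA3, a repressor of AKT signalling, was higher by 0.52 ± 0.09 (adjusted p = 4.73e-04) and by 0.55 ± 0.09 with IFNγ (adjusted p = 3.21e-04). BAX, a pore former of the mitochondrial membrane, passed with IFNγ alone (0.15 ± 0.03, adjusted p = 0.00229), and 0.08 ± 0.03 without it did not (adjusted p = 0.0847). BAX passed without IFNγ when untreated shINCA1 library 2 or IFNγ shINCA1 library 3 was left out (adjusted p 0.0327 to 0.0457).

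Both BH3-only genes of the set, whose proteins unleash BAX and BAK, were lower in shINCA1 cells. PMAIP1, which encodes NOXA, was at 42.1, 44.3 and 44.5 CPM in untreated shCTRL and 30.2, 32.0 and 32.1 CPM in untreated shINCA1 libraries, a difference of -0.47 ± 0.04 (adjusted p = 1.25e-06). With IFNγ it was -0.73 ± 0.04 (adjusted p = 2.28e-08). BBC3, which encodes PUMA, was at 4.67, 3.31 and 5.05 CPM in untreated shCTRL and 3.12, 2.38 and 2.27 CPM in untreated shINCA1 libraries. Its difference was -0.75 ± 0.22 (adjusted p = 0.0104), and -0.59 ± 0.22 with IFNγ (adjusted p = 0.0356). The latter call was lost without IFNγ shCTRL library 2 or 3 or IFNγ shINCA1 library 3 (adjusted p 0.0981 to 0.124).

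TP53INP1, a nuclear stress protein linked to cell death and autophagy, had the largest decrease of the set. It was at 6.13, 6.49 and 6.85 CPM in untreated shCTRL and 2.52, 3.16 and 2.57 CPM in untreated shINCA1 libraries, a log2 difference of -1.24 ± 0.13 (adjusted p = 6.01e-06), or 2.36-fold lower. With IFNγ it differed by -1.53 ± 0.13 (adjusted p = 1.10e-06). APAF1, the scaffold of the apoptosome, differed by -0.29 ± 0.08 (adjusted p = 0.00630) and -0.39 ± 0.08 with IFNγ (adjusted p = 0.00102). TRIAP1, which is known to restrain apoptosis, differed by -0.30 ± 0.04 (adjusted p = 3.84e-05) and -0.42 ± 0.04 with IFNγ (adjusted p = 1.93e-06). ZMAT3, an RNA-binding protein gene, and EDA2R, which encodes a receptor of the TNF receptor superfamily, passed with IFNγ alone, at -0.14 ± 0.05 and 0.21 ± 0.08 (adjusted p = 0.0261 and 0.0314). Leaving out any 1 of the 3 IFNγ shCTRL libraries or IFNγ shINCA1 library 2 ended the ZMAT3 call (adjusted p 0.0574 to 0.124). The EDA2R call was lost without IFNγ shCTRL library 2 or 3 or any 1 IFNγ shINCA1 library (adjusted p 0.0540 to 0.0909).

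Of the DNA repair genes only POLH passed in both states. It encodes the polymerase that copies past ultraviolet lesions, and was at 36.9, 34.9 and 37.0 CPM in untreated shCTRL and 23.1, 21.9 and 22.2 CPM in untreated shINCA1 libraries. The log2 difference was -0.70 ± 0.04 (adjusted p = 7.69e-08), and -0.62 ± 0.04 with IFNγ (adjusted p = 1.96e-07). XPC, which recognises distorted DNA in nucleotide excision repair, differed by -0.14 ± 0.04 without IFNγ (adjusted p = 0.0115), a call lost without untreated shINCA1 library 2 (adjusted p = 0.0694). With IFNγ it was at -0.09 ± 0.04 (adjusted p = 0.0811) and passed without IFNγ shINCA1 library 3 (adjusted p = 0.0233). DDB2, a lesion sensor of the same pathway and the gene with the site of 0 mismatches, was at 23.0 ± 0.425 and 24.6 ± 1.37 CPM (SD, n = 3) in untreated shCTRL and shINCA1 cells and passed in neither state.

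RRM2B, a ribonucleotide reductase subunit that supplies nucleotides for repair, had 1 library far from its group. In IFNγ shINCA1 cells it was at 49.5, 25.8 and 49.4 CPM, and the other 9 libraries lay between 39.0 and 48.0 CPM. The difference between the lines with IFNγ was -0.07 ± 0.18 (adjusted p = 0.760), and 0.18 ± 0.06 without that library (IFNγ shINCA1 library 2, adjusted p = 0.0354). Over 10972 tested genes of at least 5 CPM on average, 21 were at least 2-fold lower in that library than in the other 2 of its group. RRM2B, 1.92-fold below the nearer of them, was not among these, and 24 genes including RRM2B were at least as much lower as it was.

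Genes of metabolism and redox balance went both ways. FDXR, a mitochondrial reductase that feeds electrons to steroid and iron-sulphur pathways, was at 17.4, 14.4 and 16.3 CPM in untreated shCTRL and 24.7, 22.9 and 24.5 CPM in untreated shINCA1 libraries. It differed by 0.58 ± 0.07 without IFNγ and by 0.58 ± 0.07 with it (adjusted p = 1.10e-05 and 1.16e-05). SESN1, a stress-induced inhibitor of mTORC1, was at 12.04, 12.2 and 13.1 CPM in untreated shCTRL and 8.29, 8.43 and 8.04 CPM in untreated shINCA1 libraries. It differed by -0.59 ± 0.09 (adjusted p = 1.76e-04) and by -0.75 ± 0.09 with IFNγ (adjusted p = 2.73e-05). Its relative SESN2 passed in neither state, but did without IFNγ when untreated shCTRL library 3 was left out (adjusted p = 0.0228). TP53I3, an oxidoreductase, passed with IFNγ alone (0.20 ± 0.06, adjusted p = 0.0168), a call lost without IFNγ shCTRL library 1 or IFNγ shINCA1 library 3 (adjusted p 0.0554 to 0.0599).

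GDF15, a secreted stress cytokine of the TGF-β superfamily, had the largest difference of the set. It was at 1.56, 1.42 and 1.89 CPM in untreated shCTRL and 9.19, 8.51 and 9.66 CPM in untreated shINCA1 libraries. With IFNγ it was at 0.788, 1.27 and 1.30 CPM in shCTRL and 9.74, 9.58 and 8.44 CPM in shINCA1 libraries. The lowest shINCA1 library was thus well above the highest shCTRL library in both states, with log2 differences of 2.49 ± 0.16 (adjusted p = 6.28e-08) and 3.03 ± 0.16 (adjusted p = 1.47e-08), or 5.60-fold and 8.17-fold. GDF15 and TP53INP1 were the only genes of the set that differed by at least 1 on the log2 scale between the lines, in either state.

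PERP and SPATA18 were too low to test. PERP, a membrane protein gene of desmosomes and apoptosis, had 8 counts in untreated shCTRL library 2 and 0 in the other 11 libraries. SPATA18, which acts in mitochondrial quality control, had 3 counts in 1 untreated and 6 in 1 IFNγ-treated shCTRL library and 0 elsewhere. A group at 0 in all 3 libraries allows up to 0.0487 to 0.0561 CPM, from 3 counts per library, for counting error only.

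**Figure D2:**
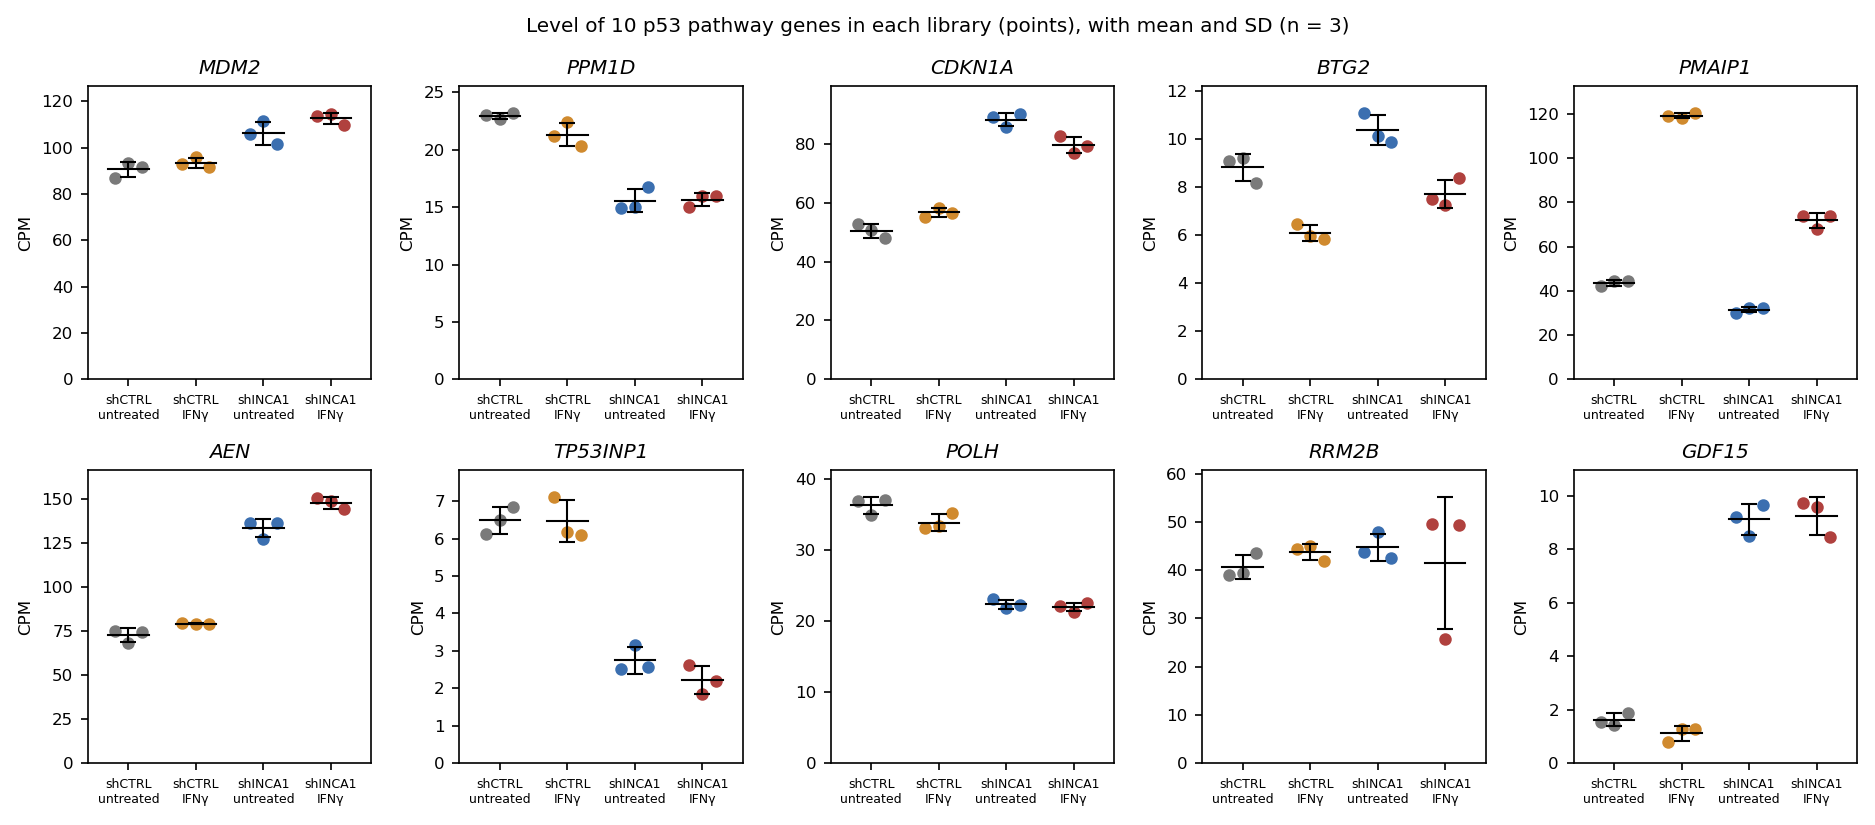
Level of 10 genes of the set in each library: the y axis is CPM from 0, points are libraries of the 4 groups, and bars give the mean and SD (n = 3). PMAIP1 is high in treated libraries of both lines (67.9 to 120.5 CPM), GDF15, AEN and CDKN1A are high in all shINCA1 libraries, and RRM2B has 1 library at 25.8 CPM.

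The position of the genes was read beside these differences, since genes of some chromosomes differed between the lines together. Chromosome 6 held 812 tested genes that could be placed, of which 70.7% were lower and 4.43% higher in untreated shINCA1 than in untreated shCTRL cells. Of the set, CDKN1A, POLH and SESN1 lie there. For SESN1 (-0.59) the 20 nearest tested genes had a median log2 difference of -0.62, and for POLH (-0.70) a median of -0.45. CDKN1A (0.80) stood against a neighbour median of -0.65, so it was higher by 1.46 relative to its neighbours. With IFNγ the values relative to the neighbours were -0.04 for SESN1, -0.23 for POLH and 1.17 for CDKN1A.

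For genes named on other chromosomes the neighbour median was 0.15 for GDF15, 0.30 for AEN, 0.09 for FDXR, 0.09 for PPM1D, -0.07 for TP53INP1, -0.09 for BBC3 and 0.16 for PMAIP1 without IFNγ. Relative to these, AEN was at 0.58, GDF15 at 2.33 and TP53INP1 at -1.17. CCNG1 went from -0.13 to 0.15. On chromosome 15, which holds AEN, 46.5% of tested genes were higher and 12.1% lower in untreated shINCA1 cells. On chromosome 17, which holds FDXR and PPM1D, the shares were 34.2% and 17.6%. What sets the shared differences of neighbouring genes was not tested.

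**Figure D3:**
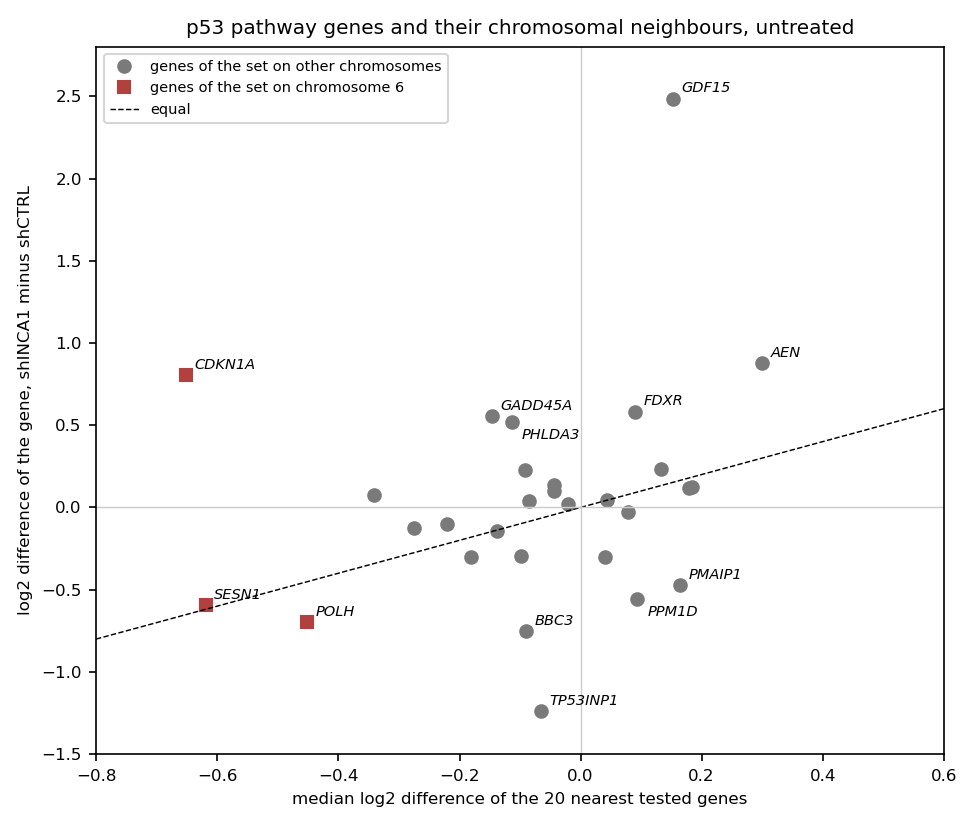
Log2 difference shINCA1 minus shCTRL without IFNγ of the 29 tested genes (y axis) against the median of the 20 nearest tested genes on the chromosome (x axis), with red squares for chromosome 6 and a dashed line where both are equal. SESN1 lies near the line (-0.59 against -0.62), while CDKN1A (0.80 against -0.65) and GDF15 (2.49 against 0.15) lie far above it.

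The response to IFNγ was then read in each line. In shCTRL cells 2 of the 29 genes rose (6.90%) and 3 fell (10.3%), beside 9.72% raised and 7.51% lowered (17.2% in either direction) over all tested genes. In shINCA1 cells 3 rose (10.3%) and 2 fell (6.90%), beside 6.13% and 2.95% (9.08%). Treated and untreated libraries did not overlap for 10 and 9 of the 29 genes, and for 33.4% and 24.9% of all tested genes. These counts are small, and the shares lie near the background in shCTRL cells. The balance of rises and falls depended on the scaling: with upper-quartile factors 37.9% of all called genes were rises in shCTRL cells, against 56.4%, and 52.6% in shINCA1 cells, against 67.5%. The set then had 1 rise and 6 falls in shCTRL and 1 rise and 4 falls in shINCA1 cells. All tested genes then had 1201 rises and 1970 falls in shCTRL and 815 and 733 in shINCA1 cells. The median change of the 29 genes was -0.05 in shCTRL and -0.05 in shINCA1 cells, beside -0.01 and 0.00 over all tested genes.

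PMAIP1 had the one large response. It went from 42.1, 44.3 and 44.5 CPM to 119, 118 and 120.5 CPM in shCTRL cells, a log2 change of 1.45 ± 0.04 (SE, edgeR adjusted p = 1.86e-10), or 2.73-fold. In shINCA1 cells it went from 30.2, 32.0 and 32.1 CPM to 73.8, 67.9 and 74.0 CPM, a change of 1.19 ± 0.04 (adjusted p = 1.54e-09), or 2.29-fold. In neither line did the treated and untreated libraries overlap, and no other gene of the set changed by as much as 1 on the log2 scale. PMAIP1 is known to be switched on by interferon regulatory factors as well as by p53.

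BTG2 fell in both lines. It went from 9.11, 9.21 and 8.16 CPM to 6.47, 5.97 and 5.85 CPM in shCTRL cells (-0.53 ± 0.08, adjusted p = 6.19e-04). In shINCA1 cells it went from 11.1, 10.2 and 9.89 CPM to 7.49, 7.28 and 8.41 CPM (-0.43 ± 0.08, adjusted p = 0.00478). TP53I3 fell in shCTRL cells, from 18.0, 16.7 and 18.2 CPM to 13.6, 15.5 and 15.0 CPM (-0.26 ± 0.06, adjusted p = 0.0115), and in shINCA1 cells its change was -0.04 ± 0.06 (adjusted p = 0.838). The difference of its responses did not pass (0.23 ± 0.09, adjusted p = 0.326).

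CDKN1A responded in opposite directions. In shCTRL cells it rose from 52.6, 50.8 and 48.0 CPM to 55.2, 58.2 and 56.6 CPM (0.17 ± 0.04, adjusted p = 0.0160). In shINCA1 cells it fell from 88.9, 85.6 and 90.1 CPM to 82.6, 77.0 and 79.3 CPM (-0.15 ± 0.04, adjusted p = 0.0464). Treated and untreated libraries did not overlap in either line, and the changes were 1.12-fold up and 1.11-fold down. Each call was fragile: the rise was lost with upper-quartile factors (adjusted p = 0.0702) and when untreated shCTRL library 2, untreated shCTRL library 3 or IFNγ shCTRL library 2 was left out (0.0577 to 0.0926). The fall was lost without untreated shCTRL library 2, IFNγ shCTRL library 3, any 1 untreated shINCA1 library, or IFNγ shINCA1 library 2 or 3 (0.0514 to 0.150), and also in a fit of the compared groups alone.

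The remaining calls were small and easily lost. Of 20 alternatives 9 ended the call of PLK2 in shCTRL cells. In shINCA1 cells 17 ended that of EDA2R and 15 that of AEN. PLK2 fell in shCTRL cells by 0.21 ± 0.06 on the log2 scale (adjusted p = 0.0409), and the call was lost without untreated shCTRL library 2 or 3, any 1 IFNγ shCTRL library or untreated shINCA1 library 2 (0.0531 to 0.124). In shINCA1 cells EDA2R rose by 0.28 ± 0.08 (adjusted p = 0.0439), and AEN by 0.15 ± 0.04 (adjusted p = 0.0444). The EDA2R call was lost without any 1 library of IFNγ shCTRL, untreated shINCA1 or IFNγ shINCA1 cells or without untreated shCTRL library 1 (0.0625 to 0.159). The AEN call was lost without any 1 library of the same 3 groups or without untreated shCTRL library 3 (0.0525 to 0.163). Both the EDA2R and the AEN call were also lost with DESeq2 size factors, with upper-quartile factors and without a filter. GDF15 was at -0.52 ± 0.17 in shCTRL cells (adjusted p = 0.0596) and passed without untreated shCTRL library 2 (0.0496). It also passed with upper-quartile factors, with the filter of 5 CPM and with DESeq2. In shCTRL cells AEN (0.13) passed without untreated shINCA1 library 2 or IFNγ shINCA1 library 3 (0.0312 to 0.0444), CCNG2 (-0.21) without IFNγ shCTRL library 1 (0.0402) and FDXR (-0.12) without untreated shCTRL library 2 (0.0321). In shINCA1 cells CCNG1 (-0.12) passed without untreated shINCA1 library 1 (0.0149), and APAF1 (-0.24) without untreated or IFNγ shINCA1 library 1 (0.0396 to 0.0479). CCNG2 (-0.35) passed there without library 1 of untreated shCTRL, IFNγ shCTRL or untreated shINCA1 cells or IFNγ shCTRL library 3 (0.0255 to 0.0495). MDM2, MDM4 and PPM1D passed in neither line, with changes between -0.11 and 0.08, and 0 of the 3 had an unadjusted p under 0.05 in edgeR. With DESeq2 the set had 3 rises and 4 falls in shCTRL and 2 rises and 4 falls in shINCA1 cells. Over all tested genes DESeq2 gave 1637 rises and 1342 falls in shCTRL and 995 and 718 in shINCA1 cells.

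**Figure D4:**
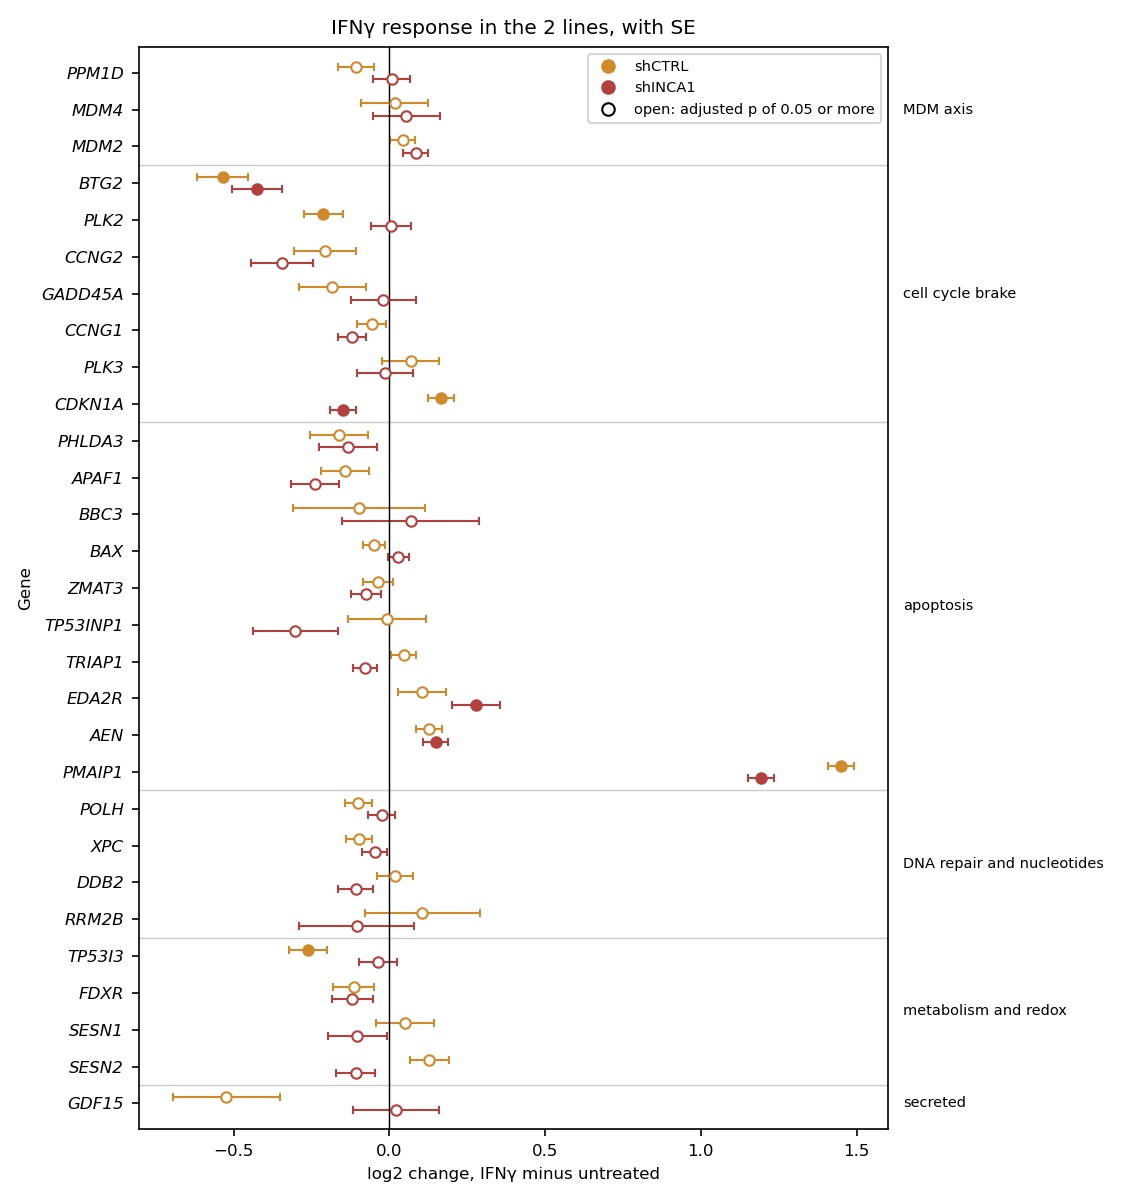
Response to IFNγ of the 29 tested genes in each line: the x axis is the log2 change with its SE, orange for shCTRL and red for shINCA1 cells, filled points past an adjusted p of 0.05. PMAIP1 stands alone at 1.45 and 1.19, BTG2 is low in both lines, and CDKN1A has filled points on either side of 0.

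The difference of the responses passed for CDKN1A only. Its response in shINCA1 minus that in shCTRL cells was -0.31 ± 0.06 (edgeR adjusted p = 0.0196). Over all tested genes 0.615% had a higher and 1.1% a lower response in shINCA1 cells, 1.71% in all. The call was lost without untreated shCTRL library 2, IFNγ shCTRL library 2, untreated shINCA1 library 1 or 3, or IFNγ shINCA1 library 2 (adjusted p 0.0503 to 0.0675), and the value stayed between -0.35 and -0.28 under all alternatives. PMAIP1 came next, at -0.26 ± 0.06 (adjusted p = 0.0535), and passed with DESeq2 (adjusted p = 0.00425), with a stricter filter on low counts and without untreated shINCA1 library 1 (0.0491), over a range of 0.00425 to 0.166. No gene of the set had a larger response in shINCA1 cells at the threshold, with 3 at an unadjusted p under 0.05 in edgeR and 0 in DESeq2's adjusted test. Over all 15769 tested genes these numbers were 924 and 192.

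Other genes of the pathway were counted from lists of 84 further p53 targets (79 tested), 22 regulators of p53 (21 tested) and 17 cell cycle genes known to be repressed through p21 and the DREAM complex (17 tested). Without IFNγ 35 of the further targets were higher (44.3%) and 21 lower (26.6%) in shINCA1 cells, and with IFNγ 40 and 24, beside the 27.4% and 29.5%, and 28.7% and 30.2%, of all tested genes. TGFA, a ligand of the EGF receptor, was at 58.5 ± 2.98 CPM in untreated shCTRL and 182 ± 14.5 CPM in untreated shINCA1 cells (SD, n = 3, log2 difference 1.64 ± 0.07 SE). GLS2, a glutaminase, was at 0.161 ± 0.0995 and 1.85 ± 0.244 CPM, and SYTL1 at 3.26 ± 0.297 and 11.04 ± 1.97 CPM. GLS2 had only 6, 13 and 6 counts in the untreated shCTRL libraries. It reached the 1 CPM average needed for naming only through the shINCA1 libraries, where it was high. SESN3, a relative of SESN1, was at 179 ± 2.58 and 30.1 ± 2.33 CPM (-2.57 ± 0.05), and RPRM, a brake on entry into mitosis, at 16.1 ± 0.141 and 0.112 ± 0.0573 CPM.

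Of the 17 repressed cell cycle genes 10 were lower (58.8%) and 3 higher (17.6%) in shINCA1 cells without IFNγ, beside 29.5% and 27.4% of all tested genes. With IFNγ 11 were lower (64.7%) and 2 higher (11.8%), beside 30.2% and 28.7%. The median log2 differences were -0.23 and -0.22. CCNA2, which encodes cyclin A2, was at 248 ± 7.33 CPM in untreated shCTRL and 153 ± 1.58 CPM in untreated shINCA1 cells (-0.70 ± 0.03), and the proliferation marker MKI67 at 787 ± 27.5 and 490 ± 27.5 CPM (-0.69 ± 0.05). CDC25C and CDK1 differed by -0.69 ± 0.06 and -0.61 ± 0.04, and E2F1 by 0.19 ± 0.05. Of the 21 tested regulators 6 were higher and 6 lower without IFNγ (28.6% each), near the 27.4% and 29.5% of all tested genes. With IFNγ 5 were higher (23.8%) and 9 lower (42.9%), beside 28.7% and 30.2%. HIPK2, a kinase that acts on p53, was higher (0.45 ± 0.06), and TRIM24, a ligase that targets p53, was lower (-0.97 ± 0.04), without IFNγ.

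IFNγ raised 14 and lowered 14 of the 79 further targets in shCTRL cells (17.7% each), and raised 8 and lowered 4 in shINCA1 cells (10.1% and 5.06%). Over all tested genes the shares were 9.72% and 7.51% in shCTRL and 6.13% and 2.95% in shINCA1 cells. TRIM22, known as an antiviral interferon-stimulated gene as well, went from 2.11 ± 0.213 to 50.1 ± 3.54 CPM in shCTRL and from 0.0396 ± 0.0685 to 6.83 ± 0.857 CPM in shINCA1 cells. TLR3, a sensor of double-stranded RNA, rose by 3.06 ± 0.09 and 3.27 ± 0.10 on the log2 scale, RNF19B by 1.78 ± 0.14 and 1.07 ± 0.14, and the autophagy gene DRAM1 by 1.28 ± 0.05 and 1.01 ± 0.05. KITLG fell by 0.77 ± 0.08 and 0.69 ± 0.08, and SESN3 by 0.84 ± 0.05 and 0.35 ± 0.05. Of the 17 repressed cell cycle genes 1 was lowered in shCTRL cells (5.88%, beside 7.51% of all tested genes), RRM2 (-0.11), and 2 in shINCA1 cells (11.8%, beside 2.95%), AURKA (-0.14) and CCNB2 (-0.11).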

How the data were processed

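The 12 libraries were made with a stranded messenger RNA kit, per the labels' protocols. The deposited table holds estimated counts (expected counts) per gene symbol, whole numbers that are not scaled between samples. FastQC, Trimmomatic, HISAT2, StringTie and hg19 were used, per the submitters' processing notes. The annotation, counting step and use of strand are likewise not stated in these sources, so reads of antisense or overlapping genes cannot be told apart. Low values pile up at 3 (5790 times) and 6 (4120), so 1 fragment may be worth about 3 units, and floors cover counting error only.

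The edgeR 4.0.16 package in R 4.3.3 was used: filterByExpr (15769 genes kept), TMM factors, and quasi-likelihood tests from a single fit to the 12 samples with a mean for each of the 4 groups, two-sided, Benjamini-Hochberg adjustment over all tested genes, threshold 0.05. The SE is the log2 fold change over the square root of F. The method was tested on simulated data with changes planted in IFNγ shCTRL libraries alone. Differences between the lines as widespread as those seen here were not simulated. Neighbours are the 10 tested genes on either side, in RefSeq GRCh38.p14 order, used for order alone (15427 of 15769 genes placed). Every member past the threshold could be named, and the members with the smallest adjusted p of each role were given by sample. Of the other lists up to 4 genes a direction with the largest change, past the threshold and with at least 1 CPM on average, could be named. The members and lists were chosen with earlier results of these data known. Alternatives were DESeq2 size factors, upper-quartile factors, other filters, the DESeq2 1.42.0 Wald test, a replicate block, a fit of the compared groups alone, leaving out every library in turn, and an adjusted p of 0.01. Pseudocount settings applied to normalized values alone and so had no use for this table.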

Additional observations from a re-analysis of the deposited data

Results flagged for a closer look

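The response of CDKN1A to IFNγ differed between the lines by a test of the difference itself: the log2 change in shINCA1 minus that in shCTRL cells was -0.31 ± 0.06 (SE, edgeR adjusted p = 0.0196). All 3 treated shCTRL libraries were above, and all 3 treated shINCA1 libraries below, the untreated libraries of their line. The changes were small, at 0.17 in shCTRL and -0.15 in shINCA1 cells, and were lost in 5 and 10 of 20 alternatives. The call of the difference was lost in 6 of 19 alternatives, of which 5 left out a single library.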

How the results depend on the processing

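Of 145 tests of a gene of the set, 51 passed. Of these, 36 passed under every alternative but the subtraction of neighbour medians, which was not counted here. Of the other 94, 14 passed under at least 1 alternative. In shCTRL cells the set had 1 rise and 6 falls with upper-quartile factors and 1 and 1 at an adjusted p of 0.01. All tested genes had 1201 and 1970 with these factors and 1098 and 605 at 0.01. In shINCA1 cells there was 1 rise with DESeq2 size factors, with upper-quartile factors, without a filter and at an adjusted p of 0.01. All tested genes then had 869, 815, 842 and 674 rises. Falls there numbered 4 with upper-quartile factors and with DESeq2, and 1 at an adjusted p of 0.01. All tested genes then had 733, 718 and 195 falls. Genes with a smaller response in shINCA1 cells numbered 2 with the filter of 5 CPM and with DESeq2, and 0 at an adjusted p of 0.01. Over all tested genes 200, 317 and 71 had a lower response under these settings. Leaving out each library gave 1 to 3 rises and 2 to 4 falls in shCTRL, 1 to 3 rises and 1 to 4 falls in shINCA1 cells, and 0 to 1 smaller responses. All tested genes then had 1171 to 1646 rises and 849 to 1341 falls in shCTRL cells. In shINCA1 cells they had 756 to 954 rises and 281 to 481 falls, and 95 to 154 had a lower response. Between the lines leaving out each library gave 7 to 9 higher and 10 to 11 lower genes of the set without IFNγ, and 9 to 11 and 8 to 10 with it. Over all tested genes 3858 to 4458 were then higher and 4326 to 4770 lower without IFNγ, and 4177 to 4598 and 4352 to 4837 with it. RRM2B with IFNγ ranged from -0.22 to 0.18, the latter without IFNγ shINCA1 library 2. With the neighbour median subtracted CCNG1 turned to 0.15 and SESN1 to 0.026 without IFNγ, and ZMAT3 to 0.074 with it. The causes were not tested, apart from the stricter threshold and smaller number of samples that some alternatives set.

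The labels do not say whether replicate numbers pair the samples. Deviations of same-numbered libraries correlated at -0.04 to 0.07 in 18 pairs, and those of other-numbered libraries at -0.07 to 0.05. Of 12 libraries 8 correlated best with their own number, so a weak pairing cannot be told from none. With the replicate number as a block the set had 3 rises and 2 falls in shCTRL, 2 rises and 1 fall in shINCA1 cells, 8 higher and 11 lower genes between untreated lines, 11 and 9 with IFNγ, and 1 smaller response. All tested genes then had 1509 rises and 1125 falls in shCTRL and 943 and 432 in shINCA1 cells. Between the lines 4280 were higher and 4619 lower without IFNγ, 4468 and 4718 with it, and 149 had a lower response. The block ended the calls of PLK2 in shCTRL cells, of CDKN1A and EDA2R in shINCA1 cells and of BBC3 between the lines with IFNγ, and AEN passed with it in shCTRL cells. Low counts limit BBC3, GDF15 in shCTRL cells, PERP and SPATA18. The same holds for GLS2 in shCTRL, RPRM in shINCA1 and TRIM22 in untreated shINCA1 cells.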
